A study of Mus musculus with 15 samples.

Results

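A set of 38 interferon-stimulated genes was followed across 15 arrays of mouse CD4+CD25+ spleen cells. The set is a list of gene symbols with no condition on their signals, and leaves out the OAS, IRG and GBP families. Each gene was represented by its brightest probe set (the group of oligonucleotides on the array that reports a transcript). Of the 38 genes, 35 had a probe set that the platform annotation gives to 1 gene symbol, and 34 were bright enough to be tested, among 10964 genes tested in all. Cmpk2, a mitochondrial nucleotide kinase, stayed between log2 3.39 and 4.07, below the filter. Isg15 is reported here only by a probe set shared with another gene, and neither Ifi44 nor Ly6a had a probe set with a symbol of its own, so these genes have no values.

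The cells are labelled regulatory T (Treg) cells, which restrain other lymphocytes under the transcription factor Foxp3. They came from wild-type mice (WT, 6 arrays), mice without Ikzf2, which encodes Helios (Ikzf2-/-, 3 arrays), mice without Ikzf4, which encodes Eos (Ikzf4-/-, 3 arrays), and mice without both (dKO, 3 arrays). The labels give no age, strain, sex or treatment, and do not say whether the knockouts were confined to T cells. Nor do they say that the arrays of a group came from different animals, so every p-value below measures the spread between arrays, which may be partly technical. The numbering of the WT arrays and their place in the series divide the study into run 1 (WT 1 to 3, Ikzf4-/- and dKO) and run 2 (WT 4 to 6 and Ikzf2-/-). That division is an inference from the numbering and from values shared exactly between arrays, since no label states it. Ikzf4-/- and dKO were set against WT 1 to 3, Ikzf2-/- against WT 4 to 6, and dKO also against Ikzf4-/-.

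Interferons are secreted proteins that warn cells of infection. Type I interferons act through the receptor pair Ifnar1 and Ifnar2 and the kinases Jak1 and Tyk2. A complex that holds Stat2 and Irf9 then binds the interferon-stimulated response element (ISRE) of target genes. Many proteins of the STAT family bind a shorter palindromic STAT element. The genes so induced encode antiviral effectors, sensors of viral RNA, parts of the pathway itself and the machinery that cuts and transports peptides for antigen presentation. Treg cells contain both Helios and Eos, which bind DNA as relatives of Ikaros.

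The sorted cells carried the Treg and T cell markers throughout: the mean of Foxp3, Il2ra, Ctla4, Tnfrsf18, Cd4 and Cd3e lay between log2 9.85 on Ikzf2-/- 2 and 10.78 on dKO 3. A pair of arrays stood apart by markers of other cells. The mean of 11 B cell genes was 7.04 on WT 1 and 7.83 on Ikzf2-/- 3 against 4.80 to 6.19 on the others, and the mean of 6 neutrophil genes was 7.36 and 9.79 on those arrays against 4.39 to 6.92. Cd8b1, a CD8 T cell gene, read 7.31 on Ikzf2-/- 2 and 6.06 to 6.12 on the rest of run 2, but 6.46 to 7.38 in run 1. Cd8a, the other CD8 gene listed, did not rise with it. It was below the filter, at 4.68 on Ikzf2-/- 2 and 4.04 to 4.78 on the other arrays. The Ikzf2 probe set read 10.06, 9.14 and 9.22 in Ikzf2-/- cells against 10.25 to 10.38 in WT 4 to 6, and 10.11, 10.16 and 10.59 in dKO against 10.46 to 10.76 in WT 1 to 3, where the groups overlapped, while Ikzf4 was not lower in any knockout. Which exons were removed is not in the labels, so the signals are no check of the genotypes. Eif2s3y, a gene of the Y chromosome, read 7.94 to 8.81 on WT 3, Ikzf4-/- 3, dKO 2 and dKO 3 and 2.87 to 3.09 on the other arrays. Each group of run 1 thus mixed arrays with and without this signal, so its arrays did not all come from the same animal. The dKO group held more arrays with the signal than WT 1 to 3 or Ikzf4-/-, so sex was not balanced in the dKO comparisons. In sorted bulk cells, fewer cells of a type and less RNA per cell cannot be told apart.

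No member passed limma's threshold (adjusted p of 0.05 over all genes tested) in any of the 4 comparisons. The widest difference belonged to an Ifitm gene in 3 of the 4 and to Eif2ak2 in dKO against WT. Ifitm genes encode small membrane proteins that block the fusion of enveloped viruses. Ifitm3 stood 1.36 log2 units higher in dKO than in Ikzf4-/- cells, a 2.57-fold difference, and 1.02 log2 units higher in Ikzf2-/- than in WT 4 to 6. Over the 31 members outside that family the median lay between -0.11 and 0.09 in the 4 comparisons. The plot of differences shows every member.

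**Figure D1:**
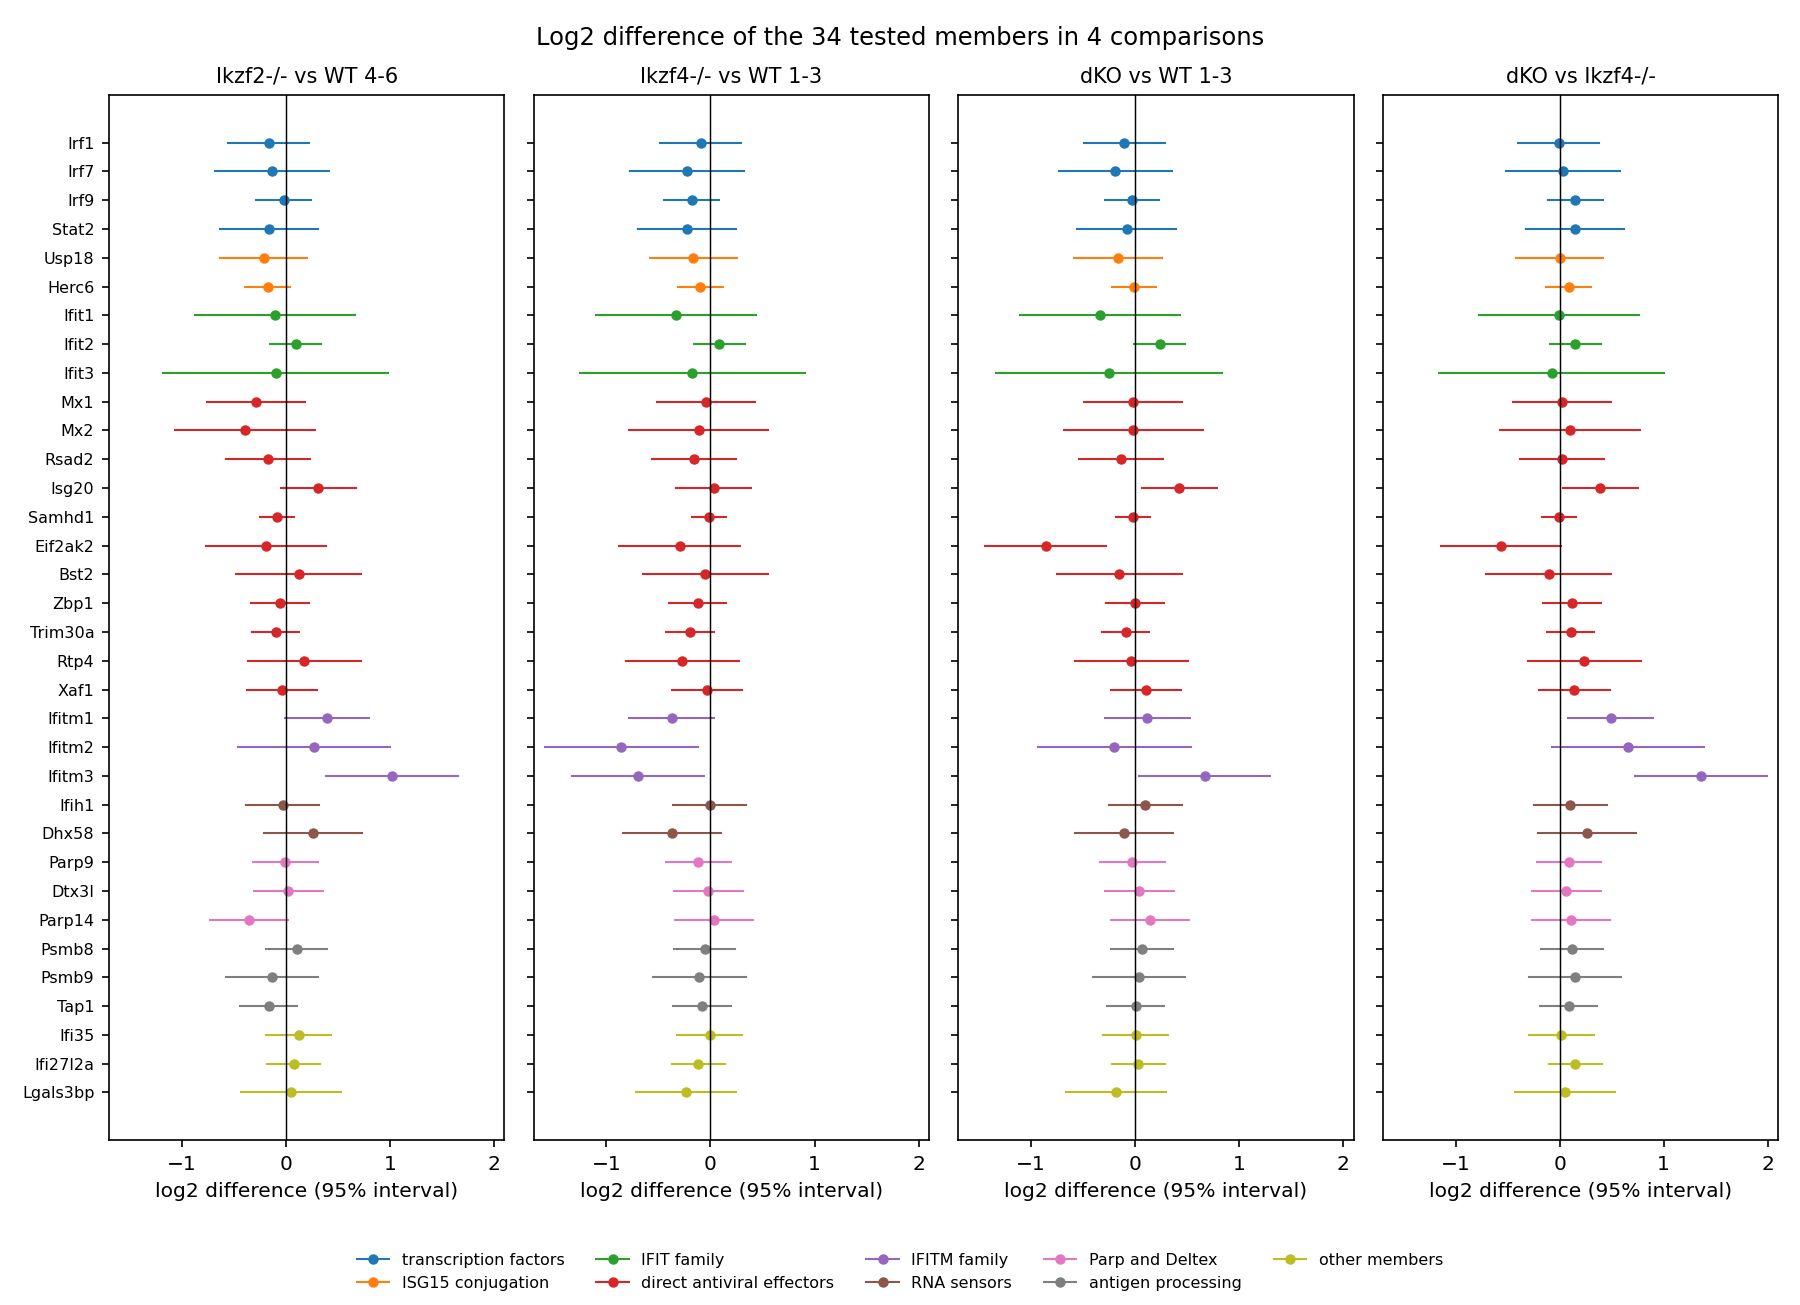
Log2 difference of each of the 34 tested members in each of 4 comparisons, as points with 95% confidence intervals from limma and colours for the functional groups. Ifitm3 lies at 1.02, -0.69, 0.67 and 1.36, while most other intervals cover 0.

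The mean of the 34 members per array separated no knockout from its WT arrays. It was 8.18, 8.34 and 8.10 on WT 1 to 3, 7.98, 8.13 and 8.0 in Ikzf4-/-, and 8.30, 8.10 and 8.12 in dKO. In run 2 it was 8.10, 7.74 and 7.73 on WT 4 to 6 and 7.68, 7.67 and 8.23 in Ikzf2-/-. Ikzf2-/- 3 and WT 4 stood well above the other arrays of their run, so that both groups of run 2 had the same mean of 7.86 with SDs of 0.32 (Ikzf2-/-, n = 3) and 0.21 (WT 4 to 6, n = 3). In run 1 the means were 8.20 ± 0.12 in WT, 8.04 ± 0.08 in Ikzf4-/- and 8.17 ± 0.11 in dKO (SD, n = 3 each), and the 3 groups overlapped. The mean of the 3 Ifitm genes had another pattern: 7.81, 7.10 and 7.16 on WT 1 to 3, 6.59, 7.06 and 6.49 in Ikzf4-/- and 7.79, 7.47 and 7.39 in dKO. All 3 Ikzf4-/- arrays were below all WT and dKO arrays of their run. In run 2 it was 7.40, 7.23 and 7.17 in WT and 7.93, 7.47 and 8.08 in Ikzf2-/-, with every knockout array above every WT array.

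**Figure D2:**
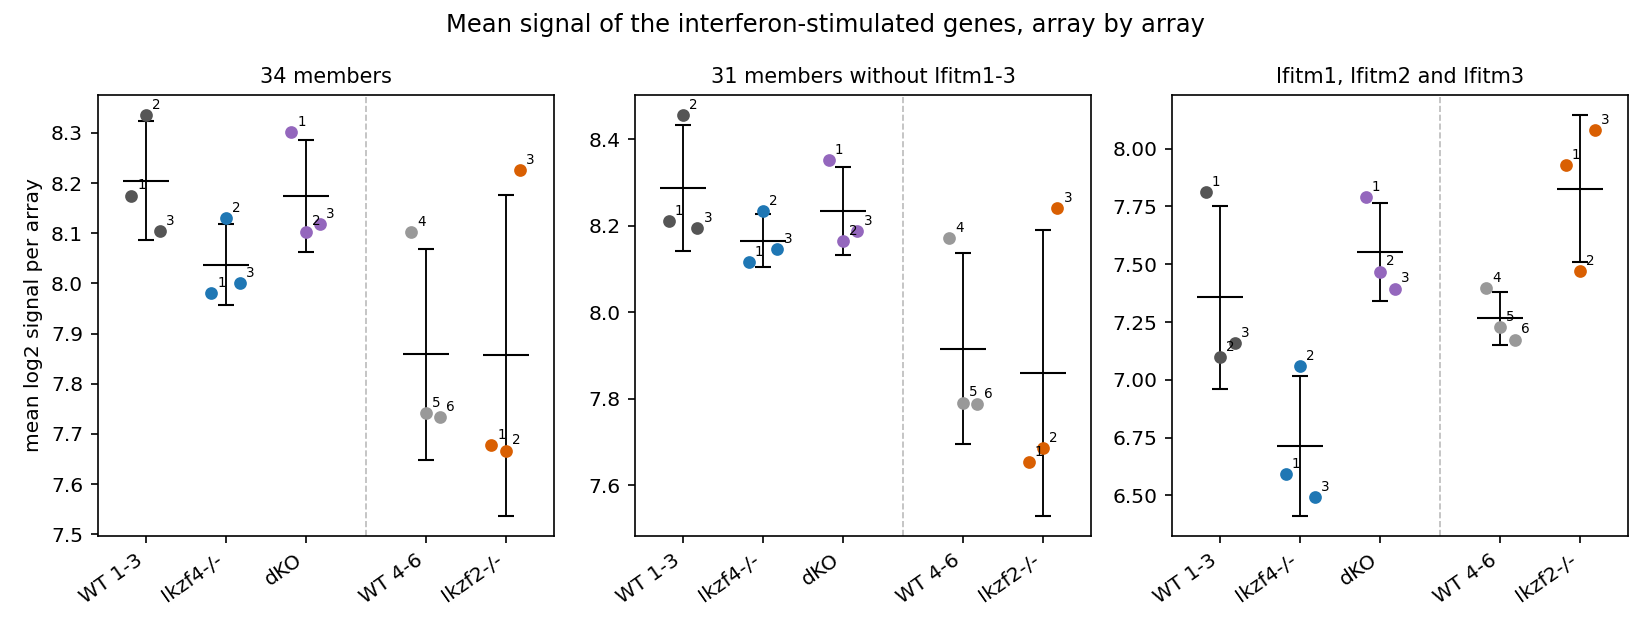
Mean log2 signal per array of all 34 tested members, of the 31 without Ifitm1, Ifitm2 and Ifitm3, and of those 3 genes; points are arrays with their replicate number, bars the group mean and SD (n = 3), and the dashed line divides the runs. The 31-member mean overlaps between groups, while the Ifitm mean of Ikzf4-/- (6.49 to 7.06) lies below that of WT 1 to 3 (7.10 to 7.81).

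To show which members carry the known interferon elements near their start, 300-base windows (250 bases before the annotated start and 50 after it, RefSeq, GRCm38.p6) were searched on both strands. The ISRE core was written as GAAA, any 2 bases and GAAA (TTTC on both sides on the other strand), and the STAT element as TTCNNNGAA, which reads alike on both strands. Of the 38 members 28 had a window. The ISRE core was found in 11 of them, which is 39.3% of these genes against 3.99% of all genes with a window. The STAT element was found in 9, or 32.1% against 9.55% of all genes. Motifs can overlap, as in Bst2. The stretches below are those of the members with the widest differences, the 3 Ifitm genes, Isg20 and Eif2ak2, followed by Ifit1 and Bst2. Within groups, Ifit1 and Bst2 correlated with the mean of the other members at 0.70 and 0.86. All run 5′ to 3′ on the strand of the gene, with matches in capitals.
Ifitm1, chr7:140968016-140968075, plus strand: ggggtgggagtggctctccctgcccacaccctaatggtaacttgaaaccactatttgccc
Ifitm2, chr7:140955962-140956021, minus strand: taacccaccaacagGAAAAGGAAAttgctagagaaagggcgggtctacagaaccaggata
Ifitm3, chr7:141010715-141010744, minus strand: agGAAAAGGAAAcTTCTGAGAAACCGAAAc
Isg20, chr7:78913324-78913383, plus strand: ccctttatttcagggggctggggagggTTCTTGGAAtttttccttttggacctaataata
Eif2ak2, chr17:78882531-78882560, minus strand: cgccggGAAAACGAAAcagaagagaaccgg
Ifit1, chr19:34640769-34640828, plus strand: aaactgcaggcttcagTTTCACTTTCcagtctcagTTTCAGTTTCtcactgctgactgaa
Bst2, chr8:71537573-71537622, minus strand: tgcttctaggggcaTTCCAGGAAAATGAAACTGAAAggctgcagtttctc
The first 60-base stretch of the Ifitm genes, upstream of Ifitm1, holds neither motif, that of Ifitm2 holds 1 ISRE core, and the first 30 bases after the start of Ifitm3 hold 2 ISRE cores around a STAT element. The ISRE core in Eif2ak2 also lies after its start, and its window holds a STAT element, not printed, 178 bases before the start. Those of Ifit1 lie 104 and 85 bases before it, and that of Isg20, a STAT element, lies 73 bases before it. These are matches of letters and say nothing of binding in these cells.

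Loss of Eos together with Helios was set against loss of Eos alone, which asks what the absence of Helios adds in cells without Eos. Ifitm3 read 9.60, 8.86 and 9.14 on the dKO arrays and 7.75, 8.14 and 7.62 on the Ikzf4-/- arrays. All dKO arrays were above all Ikzf4-/- arrays without overlap. The difference was 1.36 (SE 0.29), with an adjusted p of 0.383 in limma. With arrays weighted by their quality it passed, at 1.43 (SE 0.26, adjusted p = 0.0482), and over all alternatives it lay between 1.16 and 1.55 on the log2 scale, with no other pass.

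Ifitm1, the family member best known at the cell surface, read 6.36, 6.10 and 6.07 in dKO against 5.39, 5.89 and 5.79 in Ikzf4-/- cells. The groups did not overlap, and the difference was 0.49 (SE 0.19, limma adjusted p = 1.0). Ifitm2, which acts mainly within endosomes, read 7.41, 7.44 and 6.97 against 6.64, 7.15 and 6.07 (0.66, SE 0.34, limma adjusted p = 1.0). Its dKO 3 value lay below that of Ikzf4-/- 2. Isg20, an exonuclease that degrades viral RNA, read 8.31, 8.06 and 8.42 in dKO and 7.82, 7.88 and 7.92 in Ikzf4-/-. Here too every dKO array was the higher (0.39, SE 0.17, limma adjusted p = 1.0). Eif2ak2, the kinase PKR, which halts translation when it binds viral duplex RNA, was lower on 2 of the 3 arrays. It read 6.22, 7.08 and 6.00 in dKO and 6.85, 7.17 and 6.97 in Ikzf4-/- (-0.56, SE 0.27, limma adjusted p = 1.0), and dKO 2 lay within the Ikzf4-/- range.

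A total of 5 members had all dKO arrays above all Ikzf4-/- arrays, or 14.7% of 34, against 4.09% of all genes tested. Besides Ifitm3, Ifitm1 and Isg20 these were Psmb9, a subunit of the immunoproteasome, with a difference of 0.15, and Ifi27l2a, a small protein strongly induced by type I interferon, also with 0.15. None had all dKO arrays below, against 4.19% of all genes. At an unadjusted p under 0.05 limma had 3 of 34 members, Ifitm3, Ifitm1 and Isg20, against 3.48% of all genes, and at the adjusted threshold 0 members against 0.0274% of all genes. The median over the members was 0.10, with 28 above 0 and 6 below, while 49.3% of all genes lay above 0 and their median was -0.00. Without dKO 1 there were 23 above and 11 below (median 0.07), and with the neutrophil marker mean as a covariate 21 and 13 (median 0.06). These 34 signs are not independent, since most members vary together between arrays.

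Between dKO and WT 1 to 3 the largest gap belonged to Eif2ak2. It read 7.09, 7.83 and 6.96 on WT 1 to 3 against the dKO values above, a difference of -0.86 (SE 0.27) with an adjusted p of 0.724 in limma. dKO 1 and dKO 3 were below all WT arrays, and dKO 2 lay between WT 1 and WT 3. Isg20 read 7.79, 7.94 and 7.79 on WT 1 to 3, below each dKO array, and differed by 0.42 (SE 0.17, limma adjusted p = 1.0). Ifitm3 read 9.06, 8.57 and 7.96 on WT 1 to 3, where WT 1 lay above dKO 2, and differed by 0.67 (SE 0.29, limma adjusted p = 1.0). Ifit2, which binds foreign RNA and slows its translation, read 7.89, 7.83 and 7.66 in dKO and 7.44, 7.57 and 7.66 in WT (0.24, SE 0.11, limma adjusted p = 1.0). Its dKO 3 and WT 3 values met.

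Only Isg20 and Parp14 had all dKO arrays above all WT arrays, which is 5.88% of the members against 5.34% of all genes. Parp14, a mono-ADP-ribosyltransferase, differed by 0.14 (SE 0.17). No member had all dKO arrays below, against 4.22% of all genes. At the adjusted threshold 0 of 34 members passed in limma against 0.0638% of all genes, and at an unadjusted p under 0.05 there were 3 (Eif2ak2, Isg20 and Ifitm3) against 4.38%. The members had a median of -0.02 with 13 above 0 and 21 below, and 51.8% of all genes were above 0. Without WT 2, whose member mean was the highest of its group, 21 were above and 13 below, and without dKO 2 the counts were 20 and 14. With a covariate they were 22 and 12 (B cell marker mean) and 18 and 16 (Eif2s3y).

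Loss of Eos alone was set against WT 1 to 3. The members with the smallest p were the Ifitm genes, which read lower without passing the test. Ifitm2 read 7.87, 7.13 and 7.43 on WT 1 to 3 and 6.64, 7.15 and 6.07 in Ikzf4-/-, a difference of -0.86 (SE 0.34, limma adjusted p = 1.0). Ikzf4-/- 2 lay just above WT 2, and the other knockout arrays were below all WT arrays. Ifitm3 differed by -0.69 (SE 0.29) with the array values given above, and Ifitm1 by -0.37 (SE 0.19) from WT values of 6.51, 5.59 and 6.09, both with an adjusted p of 1.0 in limma and with overlapping groups. WT 1, with its high B cell and neutrophil markers, had the highest value of its group for all 3 genes. Without WT 1 and Ikzf2-/- 3, the Ifitm3 difference was -0.43 and that of Ifitm1 was -0.15.

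Trim30a, a member of the tripartite motif family that dampens innate signalling, read 9.82, 10.10 and 9.87 on WT 1 to 3 and 9.66, 9.74 and 9.80 in Ikzf4-/- (-0.20, SE 0.11, limma adjusted p = 1.0). The groups did not overlap. Near-identical Trim30 copies lie beside this gene, and whether its probes tell them apart was not tested. Stat2, the interferon-specific signal transducer, stood at -0.23 (SE 0.22). Usp18, the protease that removes Isg15 from proteins and damps the receptor, stood at -0.16 (SE 0.20). Parp9, a partner of the ubiquitin ligase Dtx3l, stood at -0.12 (SE 0.14). Each also had all Ikzf4-/- arrays below all WT arrays, though its 95% interval covered 0. With Trim30a these make 4 members, or 11.8% of 34, against 2.92% of all genes. No member had all arrays above, against 3.62%. Most members vary together between arrays, so neither these 4 nor the signs counted next are independent.

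No gene at all passed the adjusted threshold in Ikzf4-/- cells by limma (0.0% of all genes, and 0 of 34 members), and at an unadjusted p under 0.05 there were 2 members, Ifitm2 and Ifitm3, against 2.18% of all genes. A total of 31 members lay below 0 and 3 above, where 52.9% of all genes lay above, and the members' median was -0.12 against 0.01 over all genes. The 3 above 0 were Ifit2 (0.09), Parp14 (0.04) and Isg20 (0.03). Over the alternatives the number below 0 ranged from 14 to 32. It was 14 only when the WT arrays of run 2 were added to the controls, a setting in which the median over all genes also moved, to 0.20. It was 25 without WT 2, and 23 with the B cell marker mean as a covariate.

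Loss of Helios alone was measured in run 2. Ifitm3 read 9.25, 9.30 and 9.86 in Ikzf2-/- against 9.0, 8.13 and 8.24 on WT 4 to 6, a difference of 1.02 (SE 0.29) with an adjusted p of 0.130 in limma. Every knockout array was above every WT array, and the difference was 0.82 without Ikzf2-/- 3, where B cell and neutrophil markers were highest. Ifitm1 read 6.66, 6.53 and 6.47 against 6.18, 6.03 and 6.26 and did not overlap either (0.40, SE 0.19, limma adjusted p = 0.319). For Ifitm2 the arrays were mixed, with 7.88, 6.59 and 7.91 in Ikzf2-/- and 7.01, 7.54 and 7.02 in WT (0.27, SE 0.34).

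**Figure D3:**
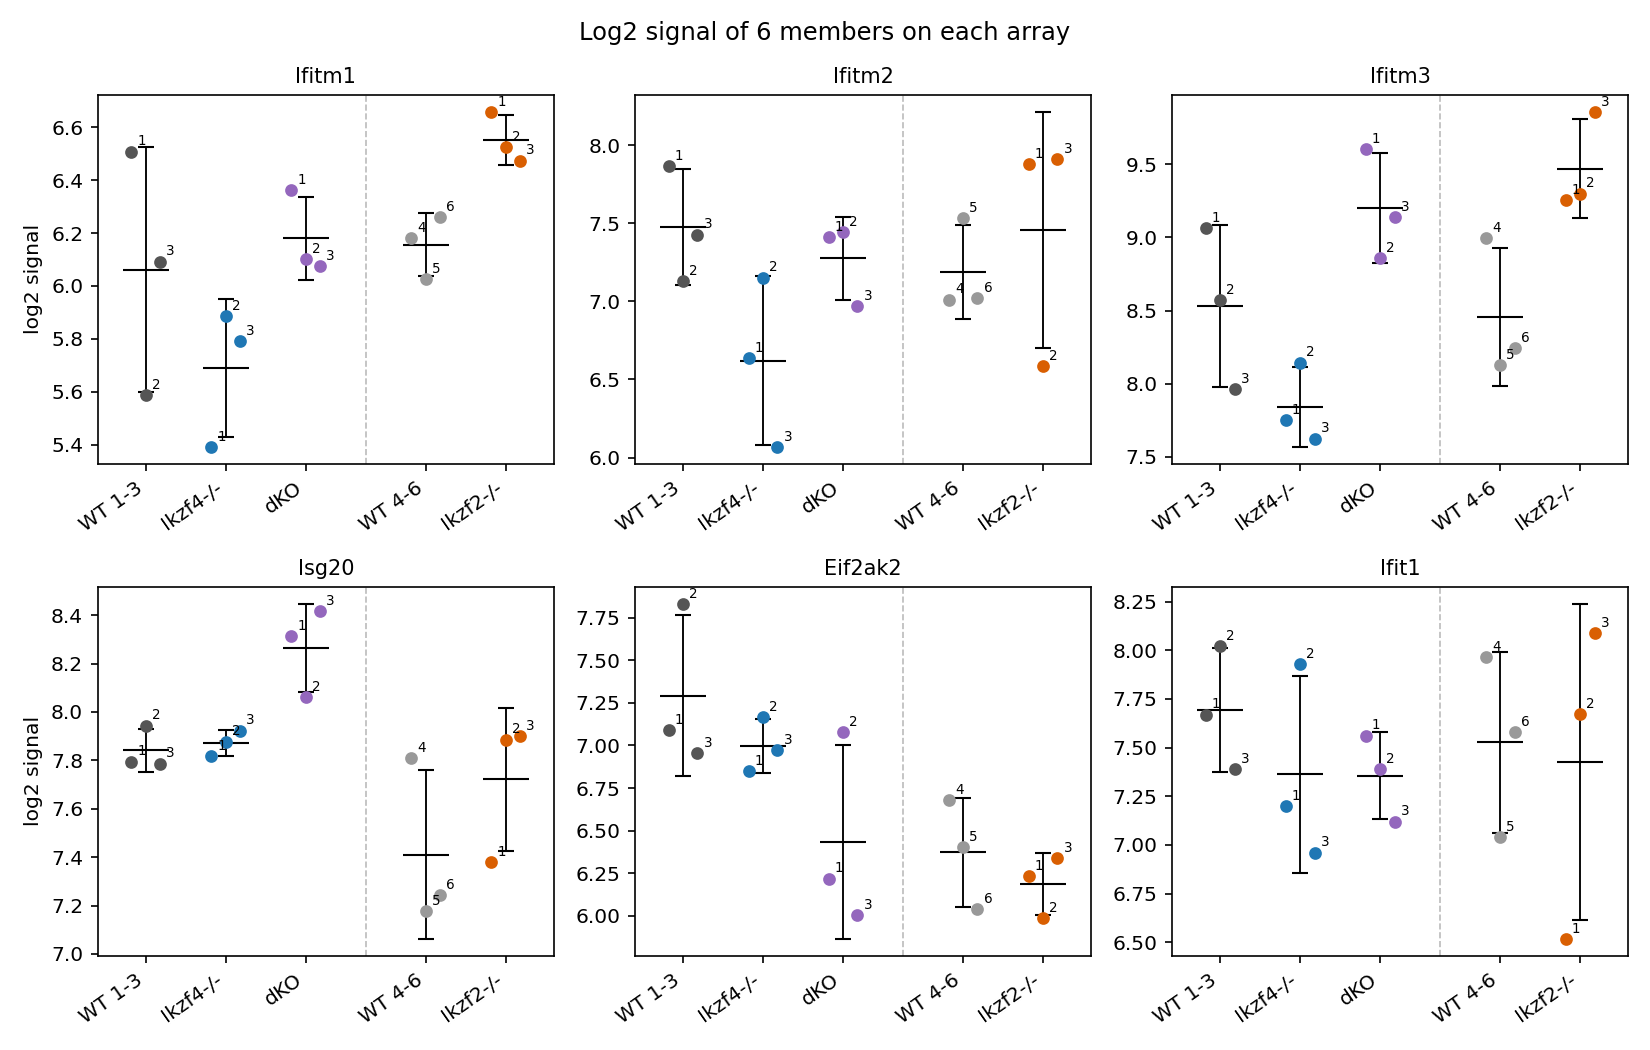
Log2 signal of Ifitm1, Ifitm2, Ifitm3, Isg20, Eif2ak2 and Ifit1 on each of 15 arrays; points carry the replicate number, bars are the group mean and SD (n = 3), and the dashed line divides the runs. Ifitm3 is lowest in Ikzf4-/- (7.62 to 8.14) and high in dKO (8.86 to 9.60) and Ikzf2-/- (9.25 to 9.86), while Ifit1 overlaps in all groups.

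Isg20 was also high on 2 of the 3 Ikzf2-/- arrays, with 7.38, 7.89 and 7.90 against 7.81, 7.18 and 7.24 on WT 4 to 6 (0.31, SE 0.17, limma adjusted p = 0.383). WT 4 overlapped the knockout range. Parp14 was -0.36 (SE 0.17, limma adjusted p = 0.331), and this difference came from Ikzf2-/- 2: the arrays read 8.54, 7.74 and 8.67 against 8.72, 8.72 and 8.57. The low array is the one with the lowest Treg marker mean and with Cd8b1, but not Cd8a, above the rest of its run. Psmb9, Stat2, Irf1 and Dtx3l were also lowest of all 15 arrays on Ikzf2-/- 2, at 9.96, 6.62, 7.46 and 7.72 (named after their values were seen). So were Psmb8, Tap1, Parp9, Samhd1, Ifi35 and Eif2ak2. WT 4 to 6 lay below WT 1 to 3 for 28 of 34 members, so this ranking includes an offset between runs. Where arrays were weighted by their quality, Ikzf2-/- 2 had the lowest weight (0.127).

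In Ikzf2-/- cells 0 of 34 members passed the adjusted threshold in limma, against 0.0638% of all genes, and 1, Ifitm3, had an unadjusted p under 0.05, against 16.4%. Ifitm1 and Ifitm3 were the only members with all Ikzf2-/- arrays above all WT arrays (5.88%, against 10.7% of all genes), and none had all arrays below (against 5.5%). The median was -0.05, with 13 members above 0 and 21 below, where 54.5% of all genes lay above 0. At equal array medians 17 were above and 17 below. Single arrays turned this count: 23 were above and 11 below without Ikzf2-/- 1, 20 and 14 without Ikzf2-/- 2, and 21 and 13 without WT 4. Without Ikzf2-/- 3 only 5 were above and 29 below.

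Ifitm3 lay above its control in both comparisons that differ by Helios and below it in the comparison that differs by Eos. Arrays are shared, since Ikzf4-/- enters both the comparison by Eos and that of dKO with Ikzf4-/-. Low Ikzf4-/- values lower the first difference and raise the other. The values are therefore given side by side and not as repeats of each other. The change with Helios loss was also compared between cells with and without Eos. The change without Eos was measured in run 1 and that with Eos in run 2. A difference by Eos therefore cannot be told apart from a difference between runs. For Ifitm3 the change without Eos exceeded that with Eos by 0.35 (SE 0.42), and 0 of 34 members passed in limma or had an unadjusted p under 0.05, where 6.29% of all genes did. The 95% interval for Ifitm3, -0.55 to 1.24, leaves room for a difference of either sign. In this contrast the members had a median of 0.15, with 31 above 0 and 3 below. Over all genes the median was -0.02, with 4976 of 10964 above 0. Without WT 4 the counts of members were 19 and 15 (median 0.06), and these signs are not independent. The change in Ikzf2-/- minus that in Ikzf4-/- was 1.71 for Ifitm3 (SE 0.42, limma adjusted p = 0.393), 1.12 for Ifitm2 (SE 0.48, adjusted p = 0.513) and 0.77 for Ifitm1 (SE 0.27, adjusted p = 0.479). These 3 were the only members with an unadjusted p under 0.05 in limma, against 9.14% of all genes. None passed the adjusted threshold, as for 0.0% of all genes. The changes in Ikzf2-/- and Ikzf4-/- also come from different runs, so genotype and run cannot be told apart here.

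The arrays hold further probe sets for Ifitm1 and Ifitm2. The second of Ifitm1 gave 0.66 in Ikzf2-/- and -0.48 in Ikzf4-/-, while dKO stood at 0.02 against WT and at 0.50 against Ikzf4-/-. The other 2 of Ifitm2 gave 0.33 and 0.76, -0.56 and -0.88, -0.04 and -0.16, and 0.52 and 0.72 in the same order. All had the sign of the brightest probe set of their gene. The family members resemble each other in sequence, so signal from one may reach the probes of another.

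Markers of other cells had the same direction as Ifitm3 in some comparisons and not in others. In Ikzf2-/- cells 6 of 6 neutrophil genes lay above WT 4 to 6 (median 1.94), with a mean per array of 6.92, 6.13 and 9.79 against 5.68, 5.01 and 5.71. In dKO against Ikzf4-/- 6 of 6 lay above 0 as well (median 0.42), with 5.35, 5.30 and 6.06 against 5.23, 4.39 and 5.07. In Ikzf4-/- against WT, 6 of 6 were below 0 (median -0.71), mostly through WT 1. B cell genes were above WT in Ikzf2-/- for 11 of 11 (median 0.83) and below in Ikzf4-/- for 11 of 11 (median -0.88). The arrays of Ikzf2-/- were mixed. Their B cell means were 6.19, 5.33 and 7.83, and Ikzf2-/- 2 lay below each of WT 4 to 6. In dKO against Ikzf4-/- only 3 of 11 were above 0 (median -0.05). In dKO against WT, where Ifitm3 was 0.67 higher, 11 of 11 B cell genes were below 0 (median -0.84), and the neutrophil genes had a median of 0.02. The lower B cell genes in Ikzf4-/- and dKO against WT came mostly through WT 1. The B cell mean was 7.04 there but 4.98 and 5.05 on WT 2 and WT 3. It was at most 5.01 in Ikzf4-/- and at most 5.02 in dKO. Of 7 macrophage and dendritic cell genes 3 were tested, namely Lyz2, Csf1r and Cd68. These lay above 0 in Ikzf2-/- (median 0.45) and below 0 in Ikzf4-/- (median -0.53) and in dKO against WT (median -0.41), and 2 of 3 were above 0 in dKO against Ikzf4-/-. In Ikzf4-/- against WT all 3 had an unadjusted p under 0.05 in limma, against 2.18% of all genes. Lyz2, the macrophage lysozyme, stood at -2.13 there. Of 4 plasmacytoid dendritic cell genes 2 were tested, Ccr9 and Tcf4, with medians of 0.28 in Ikzf2-/- and 0.00 in Ikzf4-/-. In dKO both lay below 0, with medians of -0.33 against WT and -0.34 against Ikzf4-/-. Siglech, another gene of this list, stayed between 4.31 and 4.85 on all arrays, below the filter. With the neutrophil mean as a covariate the Ifitm3 difference was 0.62 in Ikzf2-/- and 1.24 in dKO against Ikzf4-/-, and with the B cell mean it was 0.78 and 1.38. The part of these other cells in the Ifitm3 signal was not tested further.

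**Figure D4:**
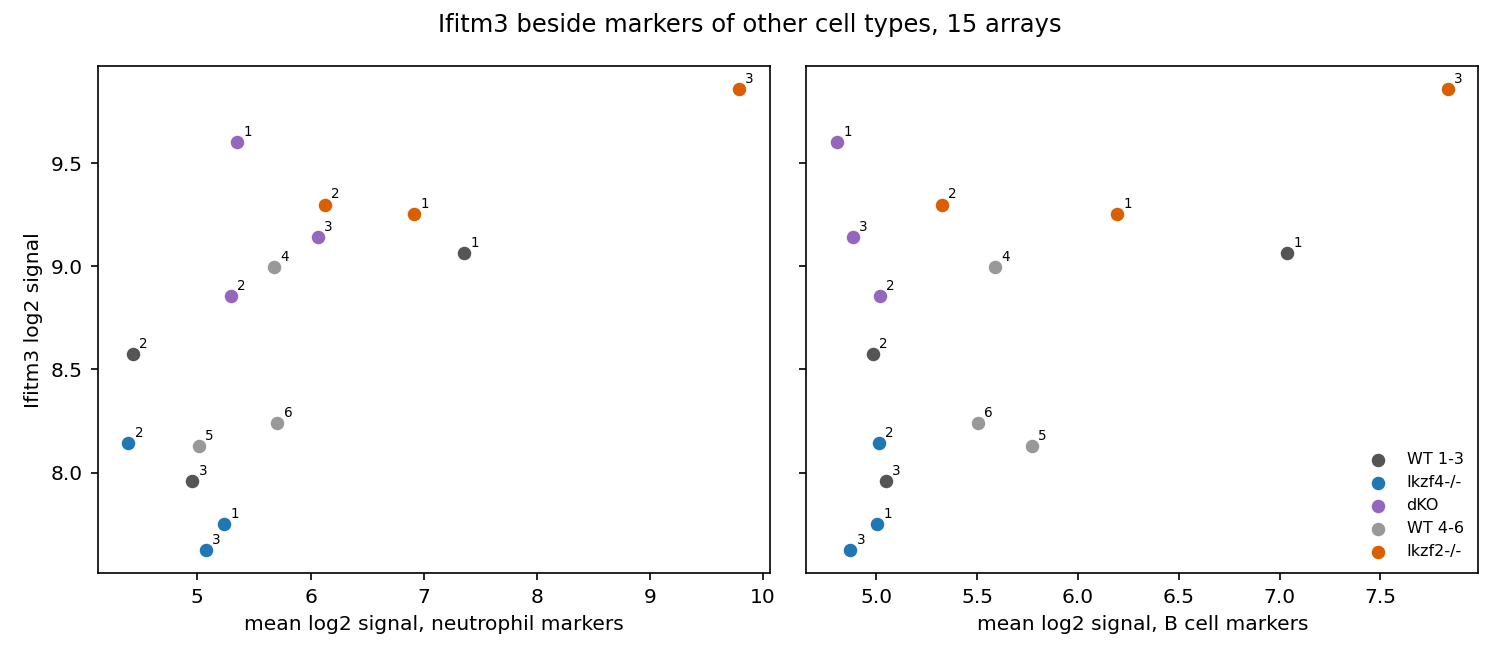
Ifitm3 log2 signal against the mean log2 signal of 6 neutrophil genes (left) and of 11 B cell genes (right) on 15 arrays, coloured by group, with replicate numbers. dKO arrays reach Ifitm3 values of 8.86 to 9.60 at neutrophil means of 5.30 to 6.06, and Ikzf2-/- 3 stands at the upper right of both panels.

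By role, no transcription factor of the pathway had an unadjusted p under 0.05 against WT in limma, with SEs from 0.12 (Irf9) to 0.25 (Irf7). The intervals were wide, as for Irf7 in Ikzf4-/-, where the 95% interval ran from -0.77 to 0.32. Irf1, Irf7, Irf9 and Stat2 had differences of -0.17 to -0.02 in Ikzf2-/-, -0.23 to -0.09 in Ikzf4-/- and -0.19 to -0.03 in dKO against WT, all of them below 0. In dKO against Ikzf4-/- they spanned -0.01 to 0.15. Usp18 and Herc6, the mouse ligase that attaches Isg15, spanned -0.21 to -0.01 against WT.

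The IFIT genes encode proteins that hold back translation of viral RNA. Their SD within groups was 0.51 for Ifit1 and 0.72 for Ifit3 but 0.14 for Ifit2, whose differences from WT were 0.10, 0.09 and 0.24 (SE 0.11) in Ikzf2-/-, Ikzf4-/- and dKO. Ifit3 read 8.27, 8.65 and 7.99 on WT 1 to 3, 7.82, 8.69 and 7.88 in Ikzf4-/-, and 8.37, 7.63 and 8.15 in dKO. In run 2 it read 9.25, 7.52 and 8.02 in WT and 6.88, 8.58 and 9.03 in Ikzf2-/-, so that Ikzf2-/- 1 and Ikzf2-/- 3 lay on either side of all other arrays but WT 4. Its differences from WT were -0.10, -0.17 and -0.25 in Ikzf2-/-, Ikzf4-/- and dKO with an SE of 0.50, and the 95% interval in Ikzf4-/- ran from -1.26 to 0.91. Ifit1 gave -0.10, -0.33 and -0.34 with an SE of 0.36.

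Among the direct antiviral effectors other than Isg20 and Eif2ak2, none had an unadjusted p under 0.05 against WT in limma. The dynamin-like GTPases Mx1 and Mx2 stood at -0.29 (SE 0.22) and -0.39 (SE 0.31) in Ikzf2-/-, at -0.04 and -0.11 in Ikzf4-/- and at -0.02 each in dKO. Their signals were low, between 4.36 and 5.94, a range in which background correction compresses changes. Rsad2 (viperin), which makes a chain-ending nucleotide, stood at -0.17, -0.16 and -0.14 (SE 0.19). Rsad2 exceeded the signal filter only in the means of the WT groups, and Mx2 only in that of WT 4 to 6. Passing the filter through WT alone favours negative differences from those WT arrays. How far it shaped the values of Rsad2 and Mx2 was not tested. Samhd1, which depletes the nucleotides that retroviruses need, had the lowest SD within groups of the 34 members (0.07), with readings from 11.20 to 11.71 and differences of -0.09, -0.01 and -0.02 (SE 0.08). Bst2 (tetherin), Zbp1, a sensor of Z-form nucleic acid, Rtp4, and Xaf1, which promotes cell death, had differences between -0.27 and 0.18 against WT.

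The RNA sensors Ifih1 (MDA5) and Dhx58 (LGP2) spanned -0.37 to 0.26 against WT, and Parp9, Dtx3l and Parp14 spanned -0.36 to 0.14. For antigen processing, the immunoproteasome subunits Psmb8 and Psmb9 and the peptide transporter subunit Tap1 spanned -0.17 to 0.10 against WT. In dKO against Ikzf4-/- they stood at 0.12 (SE 0.14), 0.15 (SE 0.21) and 0.09 (SE 0.13). Ifi35, Ifi27l2a and Lgals3bp, a secreted galectin ligand, spanned -0.23 to 0.12 against WT.

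The members varied together between arrays of the same group. Their median SD within groups was 0.25 against 0.15 over all genes tested, 29 of 34 were above that value, and 14 were in the top 10% of all genes. Correlations with the mean of the other members over 15 arrays, given as a description, had a median of 0.72 and exceeded 0.7 for 20 members. Without Ikzf2-/- 3 and WT 4, the arrays farthest from the median, the median was 0.55 and 8 members exceeded 0.7. Ifi27l2a (0.92), Irf7 (0.91) and Mx1 (0.90) were highest, while Ifitm2 (0.19) and Ifitm1 (-0.14) were lowest. These values were computed after the group means were removed, so the offset between runs is not in them. That offset, WT 4 to 6 minus WT 1 to 3, had a median of -0.38 both over the members and over all genes.

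**Figure D5:**
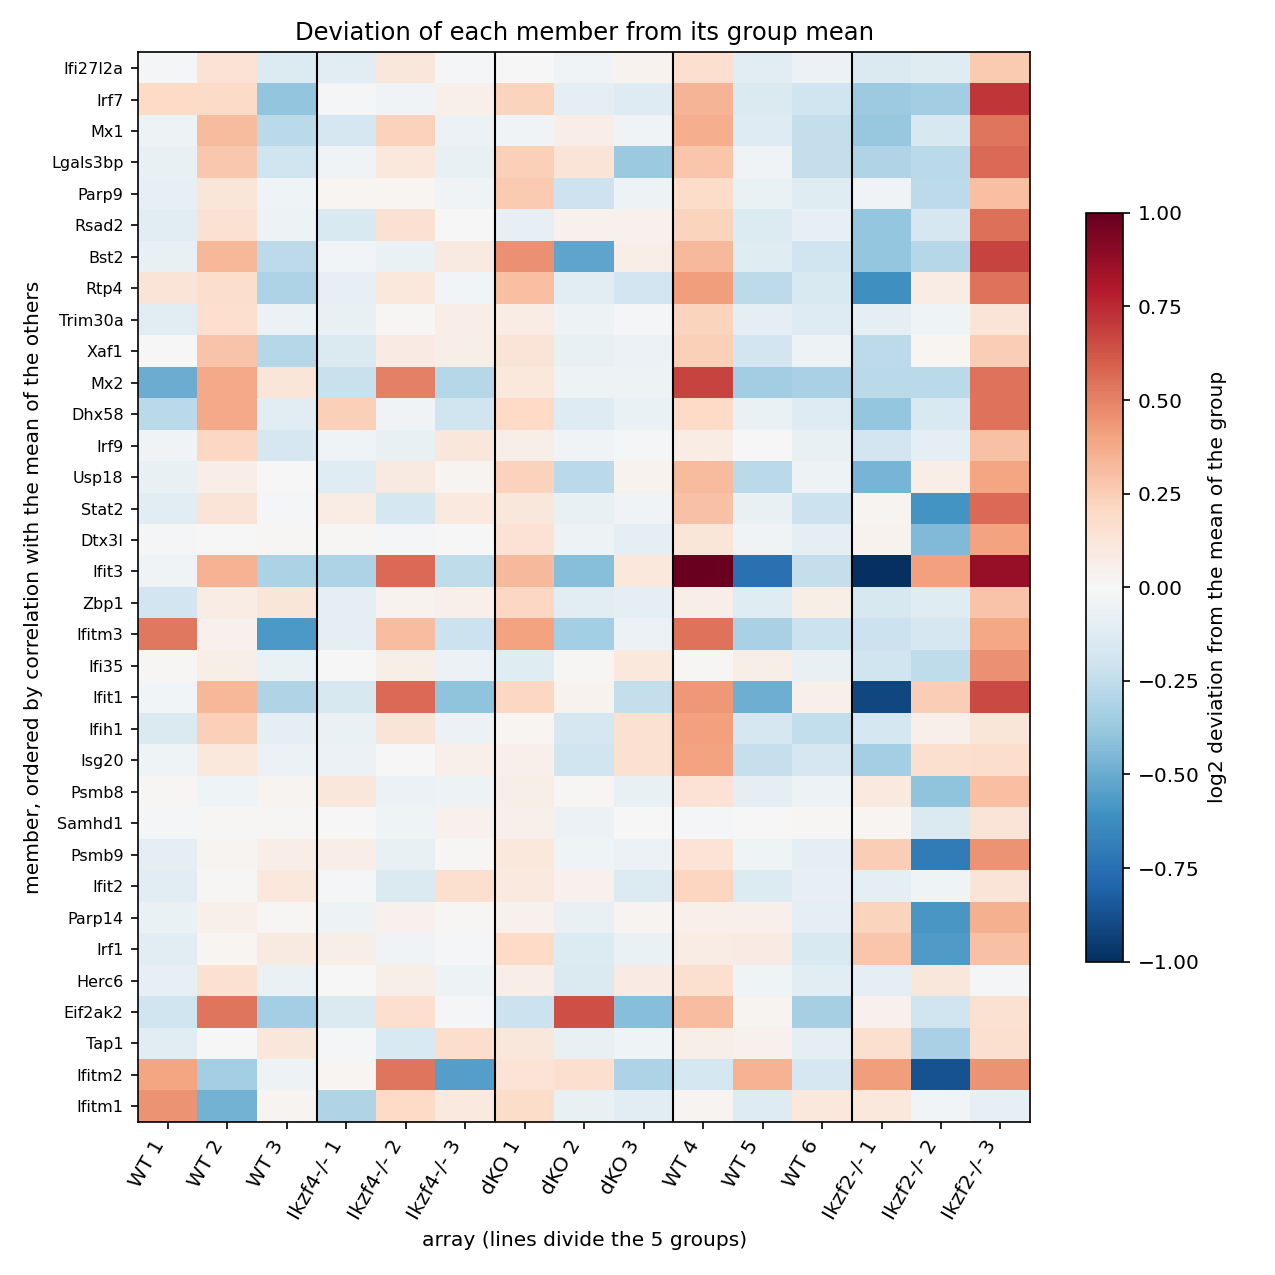
Log2 deviation of each of 34 members (rows, ordered by correlation with the mean of the others) from its group mean on each of 15 arrays (columns, in 5 groups); red is above and blue below, and the scale ends at 1. Ikzf2-/- 3 and WT 4 are red for most members, and Ifitm1 and Ifitm2 in the bottom rows follow other arrays.

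After the group means were removed, the mean of the 31 members other than the Ifitm genes correlated at 0.90 with the mean of 7 OAS genes, which make a messenger that activates RNA decay, and at 0.80 with 9 IRG and GBP genes, which encode GTPases that attack intracellular pathogens (15 arrays, as a description). With the B cell mean the correlation was 0.38 and with the neutrophil mean 0.42. The Ifitm mean differed: it correlated at 0.74 with the B cell mean, at 0.58 with the neutrophil mean and at 0.30 with the OAS mean. Without WT 1 and Ikzf2-/- 3 these values were 0.57, 0.22 and 0.19. With the mean of Ccr9 and Tcf4, listed for plasmacytoid dendritic cells, the Ifitm mean correlated at 0.69, and at 0.57 without those arrays. The 31 other members correlated with that mean at 0.44. Siglech, below the filter, is not part of it, and Tcf4 was highest on WT 1 (6.07) and Ikzf2-/- 3 (6.04). Whether it reports plasmacytoid dendritic cells was not tested. Within the family Ifitm3 stood apart, at 0.54, 0.52 and 0.64 with the B cell, neutrophil and OAS means, and at 0.21, 0.18 and 0.68 without those arrays. Its correlation with the mean of the other members was 0.71. Both sides of each correlation come from the same arrays and share their normalization.

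Upstream genes of the pathway were given by a list of 41 genes, of which 31 were tested and 0 passed in limma in any comparison. At an unadjusted p under 0.05 there were 3 in Ikzf2-/-, 1 in Ikzf4-/-, and 2 in each comparison of dKO. The shares of all genes were 16.4% in Ikzf2-/-, 2.18% in Ikzf4-/-, and for dKO 4.38% against WT and 3.48% against Ikzf4-/-. Ifng, the gene of interferon gamma, read 5.91, 5.49 and 6.05 in dKO, 4.59, 4.93 and 5.21 in Ikzf4-/- and 4.87, 5.44 and 5.21 in WT 1 to 3. All dKO arrays were above all others of run 1, with differences of 0.90 from Ikzf4-/- (SE 0.21, limma adjusted p = 0.446) and 0.64 from WT (SE 0.21, limma adjusted p = 0.757). In run 2 Ifng read 5.67, 5.17 and 5.42 in Ikzf2-/- and 5.00, 5.26 and 4.70 in WT (0.44, SE 0.21, limma adjusted p = 0.319), with overlap. Socs3, an inhibitor of cytokine receptors, was 0.42 higher in dKO than in Ikzf4-/- (SE 0.13, limma adjusted p = 1.0). The type I genes Ifnb1 and Ifna4 stayed between 3.09 and 3.64 on all arrays, below the filter, and the 8 receptor and kinase genes tested had medians between -0.08 and 0.07.

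Of the most similar families, the IRG and GBP genes lay above 0 in dKO against Ikzf4-/- for 9 of 9 (median 0.27) and in dKO against WT for 8 of 9 (median 0.25), where the members had medians of 0.10 and -0.02. Iigp1, a GTPase of that family, read 9.09, 8.72 and 9.17 in dKO, 7.93, 7.93 and 8.12 in Ikzf4-/- and 8.23, 8.23 and 8.54 in WT 1 to 3. Its dKO arrays did not overlap either group (1.00 against Ikzf4-/-, SE 0.19, limma adjusted p = 0.117). The OAS genes lay above 0 for 7 of 7 in dKO against Ikzf4-/- (median 0.23) and below 0 for 6 of 7 in Ikzf4-/- against WT (median -0.25). Whether these families differ from the members was not tested.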

How the data were processed

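RNA of 15 arrays (15 ng each, amplified with a NuGEN kit, per the labels' protocols) was measured on Affymetrix whole-transcript arrays. The authors deposited log2 signals of 35556 probe sets, made with Affymetrix Expression Console 1.3.1 and RMA, per the submitters' processing notes. RMA quantile-normalizes arrays processed together and compresses changes of dim genes; the sources used here name no genome build for them. Probe sets were named by the platform annotation, and 21789 had 1 symbol. Genes entered the fit where the mean of at least 1 group exceeded log2 4.96, the median over probe sets. The limma 3.58.1 fit in R 4.3.3 used 15 arrays and 5 group means, with Benjamini-Hochberg adjustment over 10964 genes, and was tested on simulated data. The number of arrays limits the precision.

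Pairs of arrays had exactly equal values in 2286 probe sets on average within run 1, 34.4 within run 2 and 0.0741 across runs. Deviations of same-numbered arrays from their group means, a check of pairing in run 1, correlated at 0.138, 0.217 and 0.303 for WT with Ikzf4-/-, and at 0.428, 0.196 and 0.267 for Ikzf4-/- with dKO. For WT with dKO the values were 0.0708, 0.0450 and 0.173. The values met the criterion (all above 0.1) for the first and second of these comparisons only. Differently numbered arrays were not correlated, so these values have no reference and cannot show whether arrays were paired.

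Array values are given for the 4 members with the smallest p in each comparison, then up to 6 without overlap are named. Members, lists and this rule were chosen with earlier results of these data known.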

Additional observations from a re-analysis of the deposited data

How the results depend on the processing

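Over 31 settings or fewer per comparison, 0 members were called by limma, except Ifitm3 in dKO against Ikzf4-/- with array weights (1 member, 1.43). At an unadjusted p under 0.05 the main setting had 1, 2, 3 and 3 members in Ikzf2-/- and Ikzf4-/- against WT and dKO against WT and Ikzf4-/-. Of all genes, 16.4%, 2.18%, 4.38% and 3.48% had such a p, in the same order. The median of the members ranged from -0.20 to 0.08, from -0.18 to 0.07, from -0.06 to 0.16 and from 0.06 to 0.14 in these comparisons, each within 0.19 of the main value, the SD of the member mean between arrays. The sign of Ifitm3 held in all settings run, with ranges of 0.62 to 1.29, -0.98 to -0.43, 0.38 to 0.93 and 1.16 to 1.55. The cause of these shifts was not tested.

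Counts over all genes moved more than the members. In Ikzf2-/- against WT, dKO against WT and dKO against Ikzf4-/- limma called 7, 7 and 3 genes, and in Ikzf4-/- against WT 0. In Ikzf2-/- it called 2 without a filter, 35 when quantile normalized again, 1 at equal array medians, 0 with only the 2 groups or the run's arrays, 64 with array weights, 0 with all 6 WT arrays pooled, and 3 without WT 1 and Ikzf2-/- 3. In dKO against WT these counts were 0, 2, 0, 1 (only the 2 groups), 21, 4 and 2. In dKO against Ikzf4-/- they were 0, 0, 0, 1, 1 and 21, with 6 under the stricter filter (60th percentile, log2 5.69) and 7 each with probe set means and a robust, trended prior. With single replicates left out they ranged from 0 to 409 in Ikzf2-/- (409 without Ikzf2-/- 1 and 167 without Ikzf2-/- 2), from 0 to 1 in Ikzf4-/-, and for dKO from 0 to 9 against WT and from 0 to 11 against Ikzf4-/-.

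With the replicate block in run 1, dKO had 1 gene called against WT and 2 against Ikzf4-/-, and the block changed no call of a member. Covariates chosen after seeing the data gave, for B cell markers, 3 genes in Ikzf2-/-, for neutrophil markers 1 in Ikzf2-/- and 1 in dKO against Ikzf4-/-, and for the Y-linked gene Eif2s3y 0 in all.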
